A study of Homo sapiens with 24 samples.

Results

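The 37 genes described here encode the cell-cell junctions, the basement membrane anchors, and the identity regulators of epithelial cells. They were taken as a named list of junction, desmosome, hemidesmosome and epithelial regulator genes, matched by symbol to the table of read counts, so measured values played no part in the matching. All 37 were found among the 58381 genes of the table, and all 37 were among the 20820 genes that passed the filter on low counts and were tested. RNA was sequenced from 4 lines of human bladder cancer cells (5637, T24, TCC-SUP and CLS-439), with or without mitomycin C (MMC), a drug that crosslinks DNA and is used against bladder cancer. The treated groups received 75 µM MMC for 1 h and their RNA was taken 15 h after treatment. The other group of each line was untreated. Each of the 8 groups holds 3 libraries numbered 1, 3 and 4, 24 in all, which the design text calls biological replicates. Each line is a single permanent culture grown in wells, so the 4 lines stand for themselves and not for bladder epithelium. The treatment tag of the samples spells the drug MCC, and the protocol names only MMC.

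Epithelial sheets are held together by adherens junctions, built on cadherins, by tight junctions, built on claudins, occludin and their scaffold proteins, and by desmosomes, which tie keratin filaments of neighbouring cells together. Hemidesmosomes anchor the basal cell to the laminin of the basement membrane through a dedicated integrin pair. The genes are switched on by regulators such as GRHL and ELF3, and ESRP proteins act on splicing. OVOL proteins repress the mesenchymal programme. The repressors ZEB, SNAI and TWIST switch the genes off when cells take on mesenchymal features. In the bladder these structures make up the barrier of the urothelium.

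Libraries held between 13791428 and 28821665 counted reads. CLS-439 stood apart from the other lines before any comparison. Mitochondrially encoded genes took 0.0238% to 0.0283% of its reads, against 3.21% to 7.40% in the 18 libraries of the other lines, and processed pseudogenes took 2.75% to 3.05%, against at most 0.228%. The part of this in the results with CLS-439 was not tested, so counts are also given over T24, 5637 and TCC-SUP alone. The mitochondrial share was meant as a check of the match to the human reference, and CLS-439 lay far apart in it. Whether few reads of a gene in CLS-439 mean a low level or a poorer match was not tested. In T24, 5637 and TCC-SUP, MMC replicate 1 lay furthest from its group mean, with SDs of the log2 deviation over genes of 0.473, 0.394 and 0.303, and same-numbered MMC libraries of these lines deviated together (correlations across genes of 0.20 to 0.60, which share their libraries). The calls among genes of the list are therefore also counted in each line without MMC replicate 1 of every line. Values from that setting are printed mainly for genes called there but not with all libraries. For most other responses below, those of genes outside the list among them, no such value is printed. In bulk RNA, fewer cells expressing a gene and less RNA per cell cannot be told apart.

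The epithelial label was checked against markers. Of 6 epithelial markers (EPCAM, CDH1 and the keratins KRT7, KRT8, KRT18 and KRT19), 6 were at 1 CPM (a read count scaled to the library's total after TMM scaling) or more in 5637 and TCC-SUP, and 5 in T24 and CLS-439, in both treatments. The missing marker was CDH1 in T24. In CLS-439 it was CDH1 after MMC and a keratin in the untreated libraries. Of 8 mesenchymal or fibroblast markers, 8 reached 1 CPM in TCC-SUP, 5 in 5637 and CLS-439, and 4 in T24. Their summed level did not overlap between treatments in TCC-SUP and CLS-439, at 6241 to 8741 CPM in MMC TCC-SUP libraries against 11561 to 14137 CPM in untreated ones, and at 4045 to 4247 CPM in MMC CLS-439 libraries against 5168 to 5426 CPM in untreated ones. The epithelial sum was 1087 to 2144 CPM in MMC TCC-SUP libraries against 1955 to 2671 CPM in untreated ones, which overlap, and 1738 to 2269 CPM in MMC CLS-439 libraries against 2538 to 2861 CPM in untreated ones, which do not. In T24 it was 3175 to 6886 CPM after MMC and 5357 to 6896 CPM untreated. In 5637 it was 3580 to 5374 CPM after MMC and 5140 to 6112 CPM untreated. By this sum untreated T24 was thus not below untreated 5637. Leukocyte markers summed to at most 1.88 CPM in T24, 5637 and CLS-439. In TCC-SUP they summed to 17.9 to 24.7 CPM after MMC and 35.1 to 42.0 CPM untreated, on 2 of 6 genes at 1 CPM or more. Endothelial markers summed to at most 62.4 CPM in any library. The part of these levels in the results below was not tested.

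Before treatment the 37 genes divided the lines. The list was most fully detected in 5637, where 35 of 37 genes were detected (at least 1 CPM in all 3 libraries), against 23 in TCC-SUP, 23 in CLS-439 and 20 in T24. After MMC the counts were 35 in 5637, 24 in TCC-SUP, 22 in CLS-439 and 20 in T24. Over the libraries of both treatments, the genes together took 0.813% to 0.997% of the reads of 5637, 0.214% to 0.270% in T24, 0.149% to 0.176% in CLS-439 and 0.0986% to 0.123% in TCC-SUP. Untreated 5637 had the highest mean of 28 of 37 genes, CLS-439 of 7, TCC-SUP of 2 and T24 of 0. Among T24, 5637 and TCC-SUP alone, 5637 was highest for 32 of 37. In all 4 lines 15 genes were detected, 7 were detected in 5637 alone (DSG3, GRHL2, GRHL3, OVOL1, OVOL2, RAB25 and ST14), and CLDN3 was detected in none. The share of all genes detected in each line, or highest in it, was not counted. These counts, and those of detected genes by group below, thus stand without a background.

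**Figure D1:**
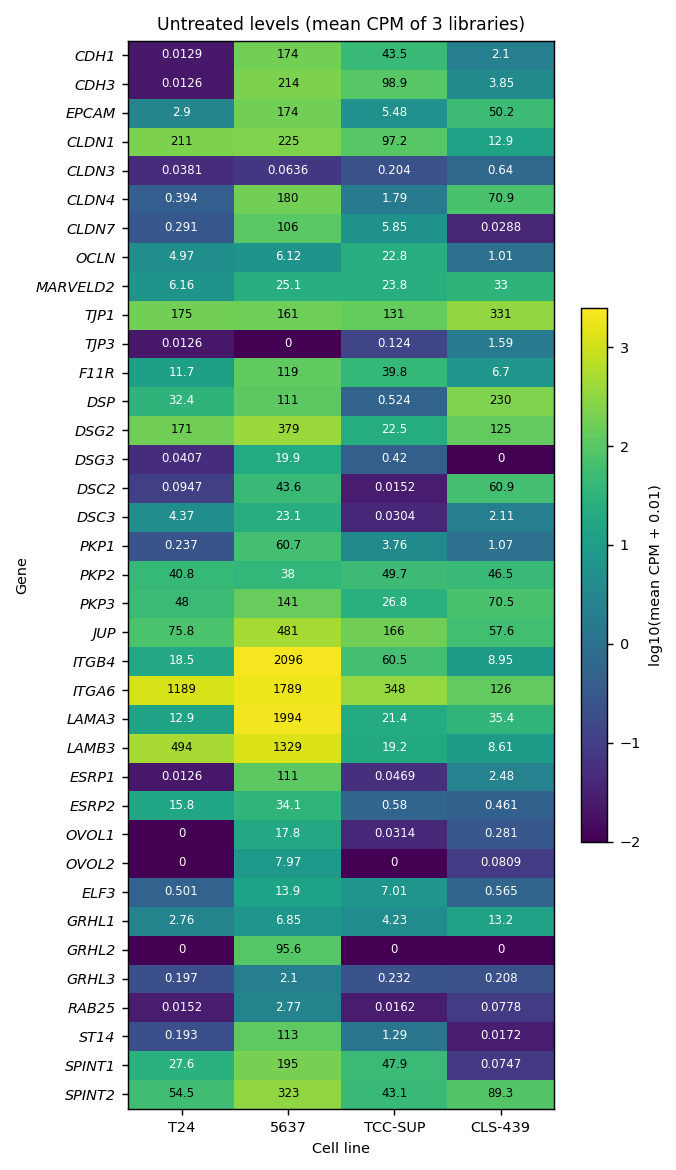
Mean untreated level of each of the 37 genes in each line (CPM, 3 libraries each; colour on a log10 scale after adding 0.01). The 5637 column is bright almost throughout, while T24, TCC-SUP and CLS-439 each lack a different set of genes.

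Of the 37 genes, 31 were higher and 0 lower in 5637 than in T24, where 24.5% of all genes tested were higher and 22.1% lower (edgeR quasi-likelihood test, adjusted p under 0.05 over all genes; 31 at an unadjusted p under 0.05). Against TCC-SUP, 30 were higher and 2 lower in 5637 (all genes 27.1% and 29.5%), the lower ones being OCLN and TJP3. Against CLS-439, 29 were higher and 7 lower in 5637 (all genes 35.6% and 38.2%). The median log2 fold change over the 37 genes was 3.34 for 5637 over T24, 4.01 over TCC-SUP and 4.12 over CLS-439, where the median of all genes was 0.00, 0.00 and -0.02. TCC-SUP and T24 differed in both directions, with 19 genes higher and 9 lower in TCC-SUP (all genes 28.4% and 22.9%). CLS-439 had 17 higher and 11 lower than T24 (all genes 39% and 33.4%) and 17 higher and 15 lower than TCC-SUP (all genes 38.6% and 38.4%).

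CDH1 and CDH3 were close to absent in T24. CDH1, which encodes E-cadherin, the core adhesion molecule of adherens junctions (chromosome 16, 68737225 to 68835548, GRCh38), had 10833 reads over the 3 untreated 5637 libraries, 2796 in TCC-SUP, 131 in CLS-439 and 1 in T24. Its level was 174 ± 10.7 CPM in 5637, 43.5 ± 24 CPM in TCC-SUP and 2.10 ± 0.352 CPM in CLS-439 (SD, n = 3). Each step down this order passed the test (adjusted p = 2.75e-05, 1.56e-09 and 1.58e-06). The ratio of 5637 to T24, 12936, has a 95% exact interval of 2321 to 510989 that covers counting error only. CDH3, which encodes P-cadherin of basal epithelial cells, followed the same order, at 214 ± 14.8, 98.9 ± 30.6 and 3.85 ± 0.682 CPM, with 1 read in T24. EPCAM, a surface adhesion molecule of epithelial cells (chromosome 2, 47345158 to 47387601), was ordered otherwise, with 174 ± 6.80 CPM in 5637, 50.2 ± 6.01 in CLS-439, 5.48 ± 0.377 in TCC-SUP and 2.90 ± 0.330 in T24, each step again past the test (adjusted p at most 0.000167).

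Tight junction genes split into a shared and a line-specific group. TJP1, the scaffold protein ZO-1, was at 331 CPM in CLS-439, 175 in T24, 161 in 5637 and 131 in TCC-SUP, and only CLS-439 differed from its neighbour in this order (adjusted p = 1.68e-06). CLDN1, a sealing claudin, was at 225 ± 10.3 CPM in 5637 and 211 ± 30.2 CPM in T24, which did not differ beyond their spread (adjusted p = 0.693), then at 97.2 CPM in TCC-SUP and 12.9 CPM in CLS-439. CLDN4, another barrier claudin, was at 180 CPM in 5637 and 70.9 CPM in CLS-439 but at 1.79 CPM in TCC-SUP and 0.394 CPM in T24. CLDN7 was at 106 ± 17.5 CPM in 5637, 5.85 ± 0.861 in TCC-SUP, 0.291 ± 0.103 in T24 and, with 2 reads, 0.0288 CPM in CLS-439. OCLN, which encodes occludin, ran against the general order: TCC-SUP had 22.8 ± 0.883 CPM, 5637 had 6.12 ± 0.815 and T24 had 4.97 ± 1.37, with no call between 5637 and T24 (adjusted p = 0.381). MARVELD2, a protein of the corners where cells meet, was highest in CLS-439 at 33.0 CPM, with 25.1 in 5637 and 23.8 in TCC-SUP, which did not differ past the threshold (adjusted p = 0.702), and 6.16 in T24. F11R, a junctional adhesion molecule, was at 119 CPM in 5637, 39.8 in TCC-SUP, 11.7 in T24 and 6.70 in CLS-439. TJP3, a second scaffold protein, had 0 reads in untreated 5637 and 99 reads in CLS-439, so 5637 was at least 33.3-fold lower (floor of 3 reads over the group). CLDN3 stayed between 0.0381 and 0.640 CPM.

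Of 9 desmosome genes, 9 were detected in 5637, 7 in CLS-439, 6 in T24 and 5 in TCC-SUP. DSP, which encodes desmoplakin, the link of desmosomes to keratin (chromosome 6, 7541575 to 7586717), was at 0.319, 0.873 and 0.380 CPM in the untreated TCC-SUP libraries, against 30.5, 32.8 and 34.0 in T24, 103, 109 and 122 in 5637 and 199, 255 and 237 in CLS-439. The 4 lines did not overlap. The desmosomal cadherins DSC2 and DSC3 had 1 and 2 reads in TCC-SUP. DSC2 was also low in T24, with 7 reads, which did not differ past the threshold (adjusted p = 0.0750), and was at 60.9 CPM in CLS-439 and 43.6 CPM in 5637. DSC3 was at 23.1 CPM in 5637, 4.37 in T24 and 2.11 in CLS-439. DSG2, the cadherin found in all desmosome-bearing tissues, was at 379 CPM in 5637, 171 in T24, 125 in CLS-439 and 22.5 in TCC-SUP. DSG3, a cadherin of basal stratified epithelium, was at 19.9 CPM in 5637 and at most 0.420 CPM elsewhere. Of the plaque proteins, PKP2 varied little, between 38.0 CPM in 5637 and 49.7 CPM in TCC-SUP with no pair of neighbouring lines called (adjusted p of 0.521 or more). PKP1 was at 60.7 CPM in 5637 and at most 3.76 CPM elsewhere, PKP3 at 141 CPM in 5637 and 26.8 to 70.5 elsewhere, and JUP, plakoglobin, at 481 CPM in 5637 and 57.6 to 166 elsewhere.

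In untreated 5637, though not in every line, hemidesmosome genes were the most abundant of the list per length of exon. There ITGB4 stood at 310 CPM per kilobase, LAMB3 at 284, ITGA6 at 274 and LAMA3 at 136, above every other gene of the list (JUP followed at 97.4). ITGB4, the integrin subunit found in hemidesmosomes (chromosome 17, 75721328 to 75757818), was at 2121, 2062 and 2105 CPM in the untreated 5637 libraries, against 65.6, 50.6 and 65.3 CPM in TCC-SUP, 29.5, 17.6 and 8.38 CPM in T24 and 11.1, 8.82 and 6.95 CPM in CLS-439. The 5637 libraries stood clear of all others, while T24 and CLS-439 overlapped (adjusted p = 0.0732). ITGA6, its partner subunit (chromosome 2, 172427354 to 172506282), was spread more evenly, at 1789 ± 142 CPM in 5637, 1189 ± 325 in T24, 348 ± 79.1 in TCC-SUP and 126 ± 11.1 in CLS-439. LAMB3 and LAMA3 encode chains of the laminin that the pair binds. LAMB3 was at 1329 CPM in 5637 and 494 in T24 but 19.2 in TCC-SUP and 8.61 in CLS-439. LAMA3 was at 1994 CPM in 5637 and between 12.9 and 35.4 CPM in the other lines, so T24 combined a high LAMB3 with a low LAMA3.

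Regulators were detected mainly in 5637. Of 8 regulators 5637 had 8 detected, and T24, TCC-SUP and CLS-439 had 2 each. GRHL2, a transcription factor that activates junction genes (chromosome 8, 101492432 to 101669726), was at 91.5, 99.4 and 95.9 CPM in untreated 5637 and had 0 reads in every untreated library of T24, TCC-SUP and CLS-439, which makes 5637 at least 2366-fold, 2028-fold and 1966-fold higher. Its relative GRHL1 was found in all lines, highest in CLS-439 at 13.2 CPM. ESRP1, an epithelial splicing factor (chromosome 8, 94641074 to 94707466), was at 103, 110 and 121 CPM in 5637, 1.98, 2.57 and 2.88 CPM in CLS-439 and had 1 and 3 reads in all in T24 and TCC-SUP. ESRP2 was at 34.1 CPM in 5637 and 15.8 CPM in T24, and at 0.580 and 0.461 CPM in TCC-SUP and CLS-439. ELF3, an ETS factor of epithelial differentiation, was at 17, 11.5 and 13.1 CPM in 5637 and 8.99, 2.96 and 9.08 CPM in TCC-SUP, which did not differ past the threshold (adjusted p = 0.0985). OVOL1 and OVOL2, zinc finger repressors of the mesenchymal programme, were at 17.8 and 7.97 CPM in 5637 and at most 0.281 CPM elsewhere. GRHL3 was at 2.10 CPM in 5637 and at most 0.232 CPM elsewhere.

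**Figure D2:**
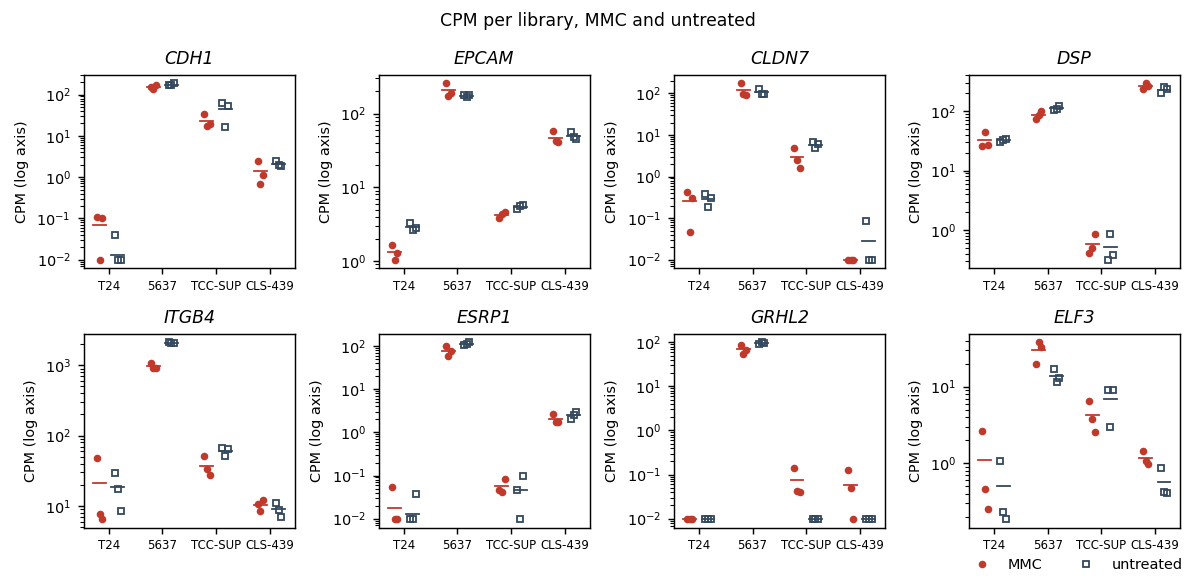
CPM of CDH1, EPCAM, CLDN7, DSP, ITGB4, ESRP1, GRHL2 and ELF3 in every library (log axes; filled red circles MMC, open blue squares untreated, bars group means; values under 0.01 drawn at 0.01). GRHL2 and ESRP1 are high in 5637 in both treatments, DSP is under 1 CPM in all 6 TCC-SUP libraries, and ITGB4 lies lower in all MMC than in all untreated 5637 libraries.

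Of the trafficking and protease genes, ST14, which encodes the membrane protease matriptase, was at 113 CPM in 5637, 1.29 in TCC-SUP and under 0.2 in T24 and CLS-439. Its inhibitor SPINT1 was also at 195 CPM in 5637, with 47.9 in TCC-SUP and 27.6 in T24, and 5 reads in CLS-439. SPINT2, a second inhibitor, was found in all lines (43.1 to 323 CPM). RAB25, a GTPase of epithelial vesicle traffic, was at 2.77 CPM in 5637 and had 1, 1 and 5 reads in T24, TCC-SUP and CLS-439.

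The repressors of these genes were not all low where the genes were high. ZEB1 was at 0.145 ± 0.0837 CPM in untreated 5637, against 34.6 ± 11.8 in T24, 18.6 ± 1.06 in TCC-SUP and 40.6 ± 2.5 in CLS-439. ZEB2 was at 3.18 CPM in 5637, against 25.6 in T24, 67.1 in TCC-SUP and 24 in CLS-439. Both were lower in 5637 than in each other line, ZEB1 by 7.85, 6.95 and 8.07 on the log2 scale against T24, TCC-SUP and CLS-439. SNAI2, in contrast, was highest in 5637, at 123 ± 6.03 CPM, against 13.7 in T24, 23.0 in TCC-SUP and 8.19 in CLS-439 (log2 fold changes of 3.16, 2.42 and 3.91). TWIST1 was at 27.3 CPM in TCC-SUP and 10.5 CPM in 5637, with 0 reads in untreated T24 and 1 read in CLS-439.

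Promoter sequence was read from RefSeq (GRCh38.p14), which gave a window of 250 bases before to 50 after the start for 23 of the 37 genes. The E-box CAGGTG, the motif that ZEB and SNAI proteins are known to bind, was searched on both strands, as were the other motifs, and lay in 12 of 23 windows, and in 20.6% of 27305 promoters of the same length. The AP-1 motif TGANTCA, which reads the same on both strands, lay in 3 of 23 (7.76% of all promoters). The grainyhead motif AACCNGTT lay in 0 of 23 (1.73% of all). These are matches of letters only. The 250 bases before the start of ITGA6, LAMB3, LAMA3 and RAB25 are shown 5′ to 3′, the integrin and laminin genes as ones that moved after MMC, and RAB25 as a gene detected in 5637 alone. Each window shown holds the E-box, and windows without it, such as those of CLDN1 and DSG3, are not shown. Capitals mark the E-box on either strand, which reads CACCTG where it lies on the other one.
ITGA6 (chr2:172427086-172427335, plus strand): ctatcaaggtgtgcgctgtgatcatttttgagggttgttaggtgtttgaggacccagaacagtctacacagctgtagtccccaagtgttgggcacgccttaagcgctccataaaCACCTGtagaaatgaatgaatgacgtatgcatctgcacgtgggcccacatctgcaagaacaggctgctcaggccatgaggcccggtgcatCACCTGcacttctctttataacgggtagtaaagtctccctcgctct
LAMB3 (chr1:209652426-209652675, minus strand): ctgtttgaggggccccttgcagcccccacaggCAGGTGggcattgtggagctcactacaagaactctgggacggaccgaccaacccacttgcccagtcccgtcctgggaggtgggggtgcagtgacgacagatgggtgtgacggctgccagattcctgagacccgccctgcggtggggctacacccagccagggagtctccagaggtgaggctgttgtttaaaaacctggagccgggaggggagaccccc
LAMA3 (chr18:23872770-23873019, plus strand): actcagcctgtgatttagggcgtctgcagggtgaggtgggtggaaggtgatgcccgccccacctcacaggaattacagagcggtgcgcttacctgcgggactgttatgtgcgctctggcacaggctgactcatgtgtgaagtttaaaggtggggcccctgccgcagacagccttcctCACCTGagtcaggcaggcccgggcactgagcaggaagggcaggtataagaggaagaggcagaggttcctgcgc
RAB25 (chr1:156060910-156061159, plus strand): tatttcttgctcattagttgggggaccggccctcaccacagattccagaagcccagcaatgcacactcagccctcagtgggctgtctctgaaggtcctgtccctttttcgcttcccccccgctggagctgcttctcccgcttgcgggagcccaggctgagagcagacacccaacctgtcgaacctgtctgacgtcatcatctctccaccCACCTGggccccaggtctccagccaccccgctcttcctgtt
ITGA6 holds 2 E-boxes in these bases, the first letters at -136 and -46 from the start, LAMB3 holds 1 at -218, LAMA3 1 at -73 and RAB25 1 at -41. In LAMA3 an AP-1 match at -69 overlaps the E-box and another stands at -125. The LAMA3 window belongs to a start inside the gene as GENCODE draws it (chromosome 18, 23689443 to 23956222).

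MMC moved a minority of the genes, in both directions. In 5637, 7 of 37 rose and 3 fell (15.9% and 13.6% of all genes tested), in T24 2 rose and 3 fell (15.2% and 13.4%), in TCC-SUP 3 rose and 6 fell (9.57% and 11.1%), and 0 rose and 1 fell in CLS-439 (0.298% and 0.322%). At an unadjusted p under 0.05 the numbers were 17 in 5637, 10 in T24, 5 in CLS-439 (3 of them higher) and 11 in TCC-SUP. Of the 20820 genes tested, 8137, 7928, 1623 and 6823 passed that threshold in the same order of lines. DESeq2 called 1 gene of the list higher in CLS-439, and 119 of 20820 over all genes. The median log2 fold change of the 37 genes was 0.01 in 5637, 0.03 in T24, 0.09 in CLS-439 and -0.11 in TCC-SUP, beside a median of 0.00 over all genes in each line. In no line did the list move as a block: 14 genes passed in at least 1 line and 23 in none. Of the 14, 3 passed in 3 lines, 5 in 2 and 6 in 1. The share of all genes called in at least 1 line was not counted, so these counts stand without a background. The same holds for the counts over lines by group of genes below.

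**Figure D3:**
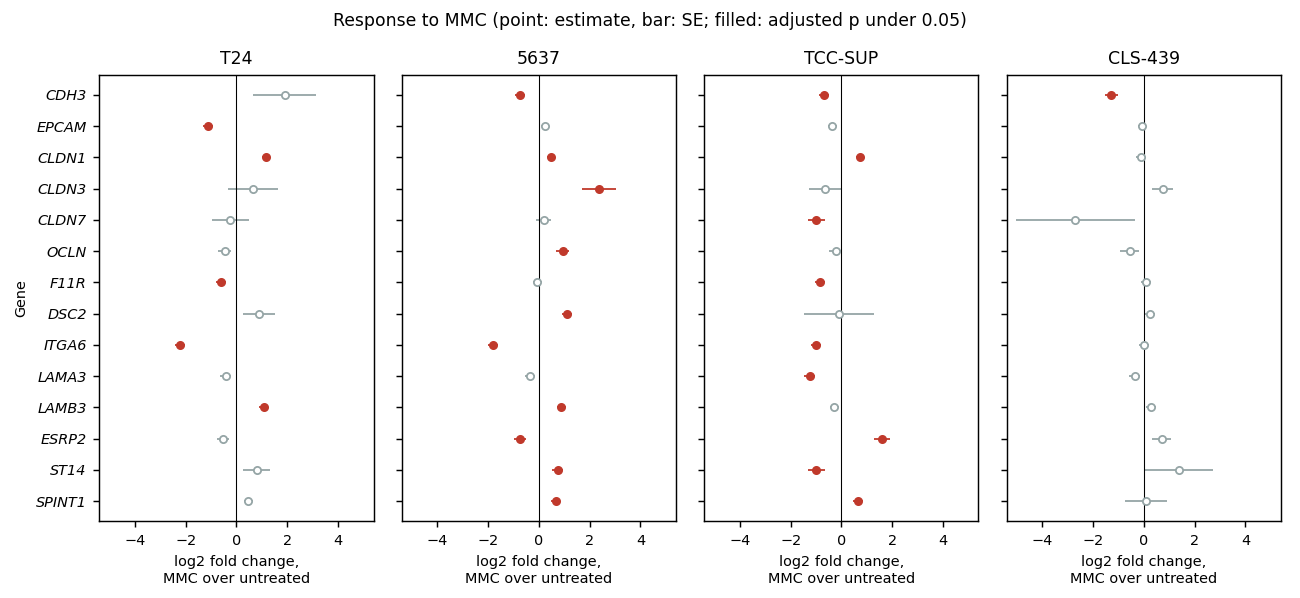
Log2 fold change of MMC over untreated, with its SE, in each line for the 14 genes called in at least 1 line (filled red, adjusted p under 0.05; open grey, not called). ITGA6 lies far left in T24 and 5637 and at 0.02 in CLS-439, and ESRP2 lies left in 5637 and right in TCC-SUP.

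ITGA6 had the lowest adjusted p of the 37 genes in T24 and in 5637. In T24 it was at 294, 228 and 247 CPM in the MMC libraries, against 907, 1117 and 1544 CPM in untreated ones (log2 fold change -2.21, SE 0.20, adjusted p = 2.56e-08). In 5637 it was at 654, 384 and 479 CPM after MMC, against 1634, 1913 and 1821 CPM untreated (-1.82, SE 0.20, adjusted p = 3.28e-07). TCC-SUP had 188, 136 and 203 CPM after MMC, against 293, 439 and 314 CPM untreated (-0.99, SE 0.20, adjusted p = 0.000985). The treated and untreated libraries of these lines did not overlap. ITGA6 exons overlap those of 3 genes on the other strand, ITGA6-AS1 among them, and whether counting used strand is not given in the sources used here. CLS-439 had 134, 118 and 130 CPM after MMC, against 114, 129 and 135 CPM untreated, values that overlap (0.02, SE 0.20, adjusted p = 1). The fall in TCC-SUP was smaller than that in T24 by a test of the difference itself (log2 difference 1.23, SE 0.28, adjusted p = 0.0112).

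LAMB3 moved the other way in the same cells. T24 had 1341, 705 and 1069 CPM after MMC, against 479, 498 and 505 CPM untreated (log2 fold change 1.07, SE 0.17, adjusted p = 4.54e-05). In 5637 it was at 2519, 2306 and 2501 CPM after MMC, against 1246, 1373 and 1368 CPM untreated (0.88, SE 0.17, adjusted p = 0.000340). All MMC libraries lay above all untreated ones in both lines. In TCC-SUP the level was 15.8 ± 0.458 CPM after MMC and 19.2 ± 2.51 CPM untreated (-0.28, adjusted p = 0.286), without overlap, and the response differed from that in T24 (-1.35, SE 0.25, adjusted p = 0.00170) and, taken as 5637 over TCC-SUP, from that in 5637 (1.16, SE 0.25, adjusted p = 0.00897).

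LAMA3, the other laminin chain of the list, fell in TCC-SUP, with 10.4, 9.16 and 7.31 CPM after MMC against 18.8, 19.1 and 26.3 CPM untreated (log2 fold change -1.26, SE 0.21, adjusted p = 0.000287). In 5637 it was at 2060, 1093 and 1549 CPM after MMC, against 1962, 2078 and 1942 CPM untreated, where MMC replicate 1 lies among the untreated libraries (-0.35, SE 0.20, adjusted p = 0.202). ITGB4 was at 1079, 913 and 921 CPM in MMC 5637 libraries, against 2121, 2062 and 2105 CPM in untreated ones. The groups are far apart, yet the test over all genes did not call the gene (log2 fold change -1.11, SE 0.48, adjusted p = 0.0853). That SE rests on a spread shared by all 8 groups, T24 among them, and does not measure the spread within 5637. With replicate numbers as blocks, which pair the libraries in 5637, ITGB4 fell by 1.11 on the log2 scale (adjusted p = 0.00468). The blocks were fitted in every line, T24 included, so the part of the pairing in 5637 was not tested. In T24 the 3 MMC libraries had 48.5, 7.64 and 6.58 CPM, against 29.5, 17.6 and 8.38 CPM untreated, so that MMC replicate 1 alone lies above the untreated libraries (0.17, SE 0.50, adjusted p = 0.885).

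**Figure D4:**
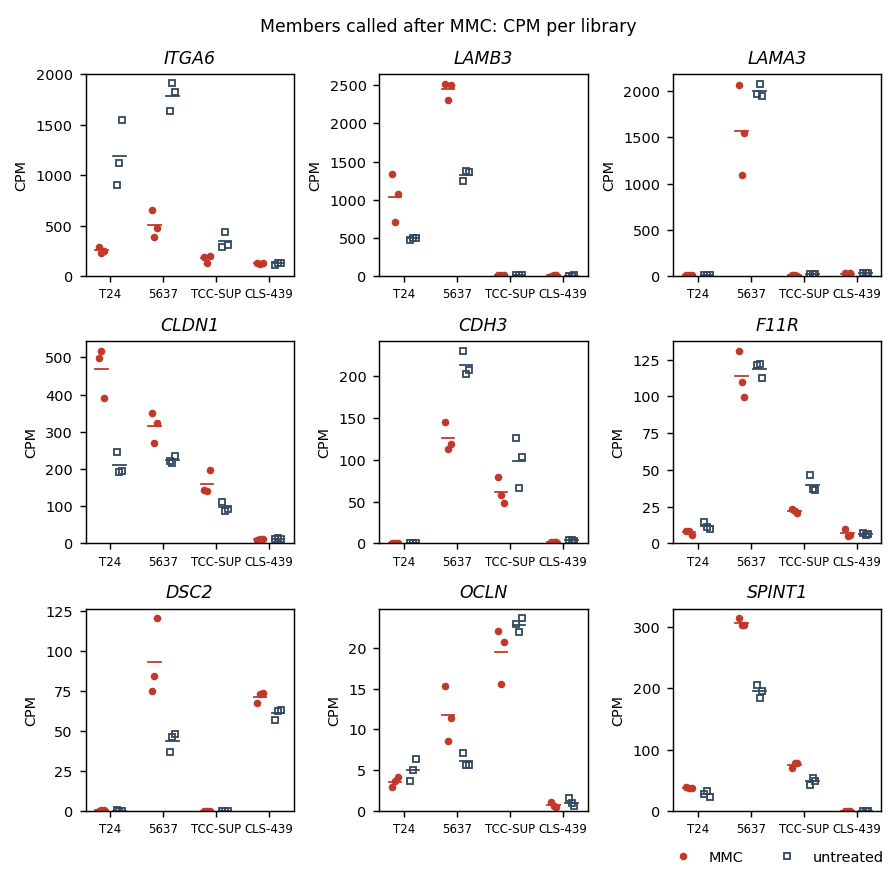
CPM in every library of 9 genes called after MMC in at least 1 line (linear axes from 0; filled red circles MMC, open blue squares untreated, bars group means). ITGA6 falls while LAMB3 and CLDN1 rise in T24 and 5637, and MMC and untreated libraries of CLS-439 lie together for most genes.

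Of the adherens junction cadherins, CDH3 was called, lower in 3 lines, and CDH1 in none. CDH3 was at 146, 113 and 119 CPM in MMC 5637 libraries, against 230, 203 and 208 CPM in untreated ones (log2 fold change -0.76, SE 0.20, adjusted p = 0.00486), and these did not overlap. TCC-SUP had 79.9, 58.2 and 48.2 CPM after MMC, against 127, 66.0 and 104 CPM untreated, which overlap (-0.67, SE 0.20, adjusted p = 0.0179). In CLS-439 CDH3 was the 1 gene of the list that was called, at 1.94, 1.36 and 1.47 CPM after MMC against 4.06, 4.41 and 3.09 CPM untreated (-1.29, SE 0.27, adjusted p = 0.0164). Leaving out a single library ended the CDH3 call for 4 of 6 libraries in TCC-SUP (MMC replicates 3 and 4, untreated replicates 1 and 4, adjusted p of 0.0686 to 0.157) and for 4 of 6 in CLS-439 (MMC replicates 3 and 4, untreated replicates 1 and 3, adjusted p of 0.0814 to 0.131).

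CDH1 in TCC-SUP had 34.2, 17.1 and 19.1 CPM after MMC against 61.4, 16.3 and 53.0 CPM untreated (log2 fold change -0.89, SE 0.34, adjusted p = 0.0665). In 5637 it had 154, 138 and 173 CPM after MMC against 167, 169 and 186 CPM untreated (-0.17, SE 0.33, adjusted p = 0.782). Both groups overlap. In T24 the gene had 4 reads after MMC and 1 untreated, a ratio of 4.90 with a 95% exact interval of 0.485 to 242.

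EPCAM was called lower in T24 and in no other line, with 1.68, 1.05 and 1.30 CPM after MMC against 3.25, 2.60 and 2.83 CPM untreated (log2 fold change -1.12, SE 0.21, adjusted p = 0.000337). The 5637 libraries had 256, 174 and 188 CPM after MMC and 180, 166 and 176 CPM untreated (0.24, SE 0.16, adjusted p = 0.258). The difference of these responses passed, at 1.37 for 5637 over T24 (SE 0.26, adjusted p = 0.00326), as did that of CLS-439 over T24 (1.03, SE 0.27, adjusted p = 0.0142). In TCC-SUP EPCAM was at 3.83, 4.35 and 4.61 CPM after MMC against 5.06, 5.58 and 5.80 CPM untreated, without overlap (-0.36, adjusted p = 0.167), and its response was not called different from that in T24 (0.76, SE 0.28, adjusted p = 0.141). In CLS-439 EPCAM was at 57.7, 42.8 and 41.0 CPM after MMC and 56.9, 48.4 and 45.3 CPM untreated.

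Among tight junction genes CLDN1 rose in 3 lines. T24 had 497, 518 and 390 CPM after MMC, against 246, 192 and 195 CPM untreated (log2 fold change 1.15, SE 0.16, adjusted p = 6.95e-06). TCC-SUP had 143, 141 and 197 CPM after MMC, against 112, 86.0 and 93.9 CPM untreated (0.72, SE 0.16, adjusted p = 0.00199). In 5637 it was at 350, 270 and 324 CPM after MMC against 222, 216 and 236 CPM untreated (0.49, SE 0.16, adjusted p = 0.0193), a call lost without any 1 of 4 libraries (MMC replicates 1 and 4, untreated replicates 1 and 3, adjusted p of 0.0600 to 0.0925). No groups overlapped in these lines, and the response in 5637 was not called different from that in T24 (-0.66, SE 0.22, adjusted p = 0.0930) or TCC-SUP (-0.23, SE 0.22, adjusted p = 0.701). CLS-439 had 11.7 ± 1.87 CPM after MMC and 12.9 ± 1.39 CPM untreated.

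F11R fell in TCC-SUP, with 23.8, 21.8 and 20.7 CPM after MMC against 46.3, 36.8 and 36.4 CPM untreated (log2 fold change -0.85, SE 0.19, adjusted p = 0.00258). It also fell in T24, with 8.44, 8.23 and 6.08 CPM after MMC against 14.5, 11 and 9.55 CPM untreated (-0.62, SE 0.20, adjusted p = 0.0206). Its level in 5637 was 114 ± 16 CPM after MMC and 119 ± 5.13 CPM untreated. The T24 call was lost without MMC replicate 4 or untreated replicate 1 (adjusted p of 0.122 and 0.128), and 1853 bases of F11R exons overlap another gene on the same strand. OCLN rose in 5637, with 15.3, 8.62 and 11.4 CPM after MMC against 7.06, 5.65 and 5.65 CPM untreated (0.95, SE 0.26, adjusted p = 0.00679; 0.0572 without MMC replicate 1). Its response in 5637 was above that in T24 by 1.42 (SE 0.37, adjusted p = 0.0324).

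CLDN7 fell in TCC-SUP, with 4.81, 2.45 and 1.63 CPM after MMC against 6.66, 4.95 and 5.94 CPM untreated (log2 fold change -0.99, SE 0.34, adjusted p = 0.0420). That call was lost without any 1 of 5 libraries, all but MMC replicate 1 (adjusted p of 0.0582 to 0.198). CLDN3 was called higher in 5637 on 23 reads after MMC and 4 untreated (2.37, SE 0.68, adjusted p = 0.0103), and lost without untreated replicate 1 or 4 (adjusted p of 0.0580 and 0.0511). CLDN4 in CLS-439 was at 81.2, 159 and 147 CPM after MMC against 61.2, 75.9 and 75.5 CPM untreated (0.87, SE 0.21, adjusted p = 0.0635). With the replicate block, which pairs the libraries of this line, it rose by 0.81 (adjusted p = 0.0238). MARVELD2, TJP1 and TJP3 were called in no line.

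Of 9 desmosome genes 1 was called. DSC2 rose in 5637, with 74.9, 84.3 and 121 CPM after MMC against 37.0, 46.0 and 47.7 CPM untreated (log2 fold change 1.10, SE 0.19, adjusted p = 0.000117), and the groups did not overlap. In CLS-439, the other line with the gene, it was at 67.3, 72.9 and 73.9 CPM after MMC and 57.0, 62.3 and 63.2 CPM untreated (0.23, SE 0.19, adjusted p = 0.899), and the response in 5637 was higher by 0.87 (SE 0.27, adjusted p = 0.0428). DSP was at 73.3, 85.7 and 100 CPM in MMC 5637 libraries against 103, 109 and 122 CPM in untreated ones (-0.37, SE 0.19, adjusted p = 0.167). It was at 236, 294 and 268 CPM in MMC CLS-439 libraries against 199, 255 and 237 CPM in untreated ones (0.21, SE 0.19, adjusted p = 0.911). DSG3 in 5637 was at 12.8 ± 3.43 CPM after MMC and 19.9 ± 2.26 CPM untreated (-0.64, adjusted p = 0.0669). With the replicate block it fell by 0.66 (adjusted p = 0.0152).

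Of 8 regulators ESRP2 was called, in opposite directions in 5637 and TCC-SUP, and the other 7 in no line. In 5637 it fell, with 29, 14.8 and 17 CPM after MMC against 36.0, 32.5 and 33.7 CPM untreated (log2 fold change -0.75, SE 0.23, adjusted p = 0.0149), a call lost without MMC replicate 3 or 4 (adjusted p of 0.102 and 0.0814). In TCC-SUP it rose at a low level, with 1.26, 2.53 and 1.51 CPM after MMC against 0.730, 0.582 and 0.428 CPM untreated (1.6, SE 0.33, adjusted p = 0.00140). The groups did not overlap in either line, and the responses differed by 2.35 on the log2 scale (5637 over TCC-SUP -2.35, SE 0.40, adjusted p = 0.00140).

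GRHL2 was at 87.8, 55.5 and 66.9 CPM in MMC 5637 libraries against 91.5, 99.4 and 95.9 CPM in untreated ones, with no overlap, and was not called (log2 fold change -0.45, SE 0.21, adjusted p = 0.115). ESRP1 was at 99.2, 57.7 and 77.4 CPM after MMC against 103, 110 and 121 CPM untreated in 5637, again without overlap or call (-0.51, SE 0.20, adjusted p = 0.0592). ELF3 was at 19.7, 37.9 and 33.2 CPM in MMC 5637 libraries against 17, 11.5 and 13.1 CPM in untreated ones (1.13, SE 0.49, adjusted p = 0.0853). With the replicate block ELF3 rose by 1.10 (adjusted p = 0.00999). No read of GRHL2 was counted in any T24 library. In all, TCC-SUP had 5 GRHL2 reads after MMC and 0 untreated, which was not called (adjusted p = 0.0717). Against the floor the ratio was 1.52, which takes the 5 reads as exact and so is no lower limit of a rise.

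Matriptase and its inhibitor SPINT1 both rose in 5637. ST14 was at 204, 170 and 192 CPM after MMC against 119, 107 and 113 CPM untreated (log2 fold change 0.74, SE 0.21, adjusted p = 0.00986; 0.0568 without untreated replicate 3). SPINT1 was at 315, 303 and 304 CPM after MMC against 206, 184 and 196 CPM untreated (0.65, SE 0.18, adjusted p = 0.00676). SPINT1 also rose in TCC-SUP, with 69.8, 77.7 and 78.0 CPM after MMC against 42.2, 53.3 and 48.2 CPM untreated (0.65, SE 0.18, adjusted p = 0.0116; 0.0772 without untreated replicate 1). ST14 was called lower there, on 45 reads after MMC and 82 untreated (-0.99, SE 0.34, adjusted p = 0.0417), a call lost without MMC replicate 1 or 4 or untreated replicate 4 (adjusted p of 0.0571 to 0.335). SPINT2 was called in no line. In 5637 it was at 254 ± 50.9 CPM after MMC and 323 ± 24.3 CPM untreated (-0.35, adjusted p = 0.133), and with the replicate block it fell by 0.36 (adjusted p = 0.0362).

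With the replicate blocks 8 of 37 genes rose and 6 fell in 5637, in place of 7 and 3 (16.8% and 15.5% of all genes under the block). The 6 that fell were CDH3, DSG3, ESRP2, ITGA6, ITGB4 and SPINT2. In CLS-439 1 gene rose in place of 0 (0.36% of all genes).

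A joint test of whether the 4 lines responded alike called 8 of 37 genes, where 16% of all genes were called. At an unadjusted p under 0.05, 14 of 37 passed, and 6433 of 20820 over all genes. The 8 called were ITGA6, ESRP2, LAMB3, CLDN1, EPCAM, ST14, OCLN and F11R. Without CLS-439, whose libraries stand apart, 5 of these passed over T24, 5637 and TCC-SUP (LAMB3, ESRP2, EPCAM, OCLN and ST14), where 5.22% of 17962 genes were called, and ITGA6 (adjusted p = 0.0545), F11R (0.108) and CLDN1 (0.179) did not.

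Pairs of lines were compared in 6 contrasts added after the data had been seen, each with p-values adjusted over all genes. For 5637 over CLS-439, 2 genes (OCLN and DSC2) had a higher and 2 (ITGA6 and ESRP2) a lower response (5.12% and 3.9% of all genes). For 5637 over T24, EPCAM and OCLN were higher and 0 genes lower (1.7% and 1.77%). At an unadjusted p under 0.05, 5 of 37 passed there, and 3378 of 20820 over all genes. For 5637 over TCC-SUP, LAMB3 and ST14 were higher and ESRP2 lower (1.73% and 0.97%). For CLS-439 over T24, EPCAM and ITGA6 were higher and CLDN1 and LAMB3 lower (4.74% and 5.4%). For CLS-439 over TCC-SUP, ITGA6 was higher and CLDN1 lower (1.44% and 1.21%). For TCC-SUP over T24, ITGA6 and ESRP2 were higher and LAMB3 lower (1.38% and 2.42%).

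Without MMC replicate 1 of every line, an alternative chosen after the data had been seen, more genes of the list passed and every call made with all libraries was kept. In T24 4 rose and 10 fell (19.2% and 18.9% of all genes), in 5637 9 rose and 10 fell (20.2% and 20%), in TCC-SUP 3 rose and 10 fell (15.8% and 17.9%), and 1 rose and 1 fell in CLS-439 (1.06% and 1.88%). The added calls were mostly falls. Those in adhesion plaque and basement membrane genes were all falls, while those in regulator genes went both ways. ITGB4 fell in T24 (log2 fold change -1.37, adjusted p = 0.0105), 5637 (-1.22, adjusted p = 0.00796) and TCC-SUP (-1.0, adjusted p = 0.0346), its direction in T24 being the reverse of that with all libraries. PKP2 fell in the same lines (-0.87, -0.63 and -0.48, adjusted p of 0.000245, 0.00463 and 0.0308). PKP3 fell in T24 and 5637 (-1.35 and -0.62), as did SPINT2 (-0.62 and -0.54) and LAMA3 (-0.60 and -0.62). GRHL2 and ESRP1 fell in 5637 (-0.67 and -0.75, adjusted p of 0.00150 and 0.000602), and CDH1 fell in TCC-SUP (-1.28, adjusted p = 0.0151). ELF3 rose in 5637 (1.33) and fell in TCC-SUP (-1.16, adjusted p = 0.0403), and CLDN4 rose in CLS-439 (1.11) and fell in T24 (-1.66, adjusted p = 0.0245). ESRP2 fell in T24 (-0.71, adjusted p = 0.00213). The other added rises were OVOL1 in 5637 (0.88), SPINT1 in T24 (0.45) and OVOL1 in T24 (adjusted p = 0.0245), the last on 5 reads over all MMC libraries and 0 untreated.

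**Figure D5:**
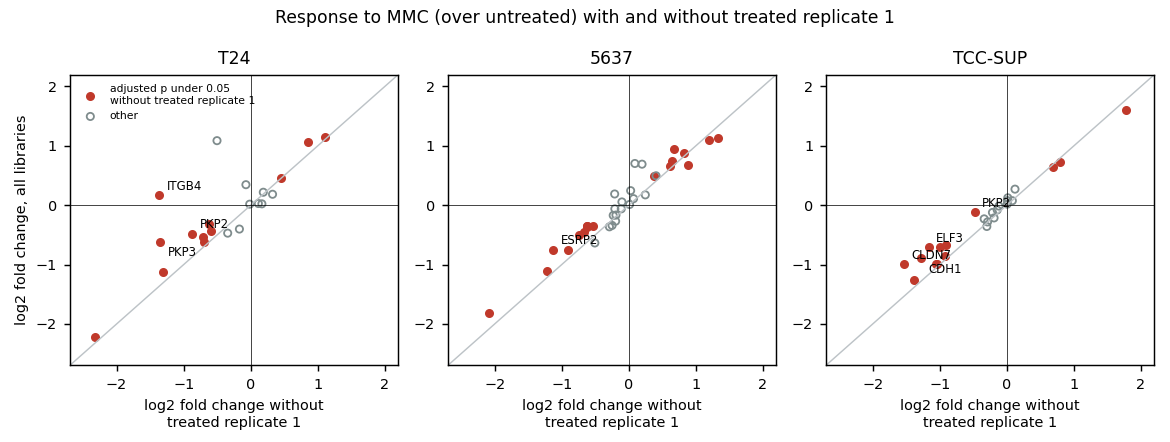
Log2 fold change of MMC over untreated with all libraries (vertical) and without MMC replicate 1 of every line (horizontal) for the genes of the list at 1 CPM or more in either group, in T24, 5637 and TCC-SUP (filled red, adjusted p under 0.05 without it; line of equality in grey). Most points lie near the line, and ITGB4 in T24 moves across 0, at 0.17 with all libraries and -1.37 without.

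Other genes of these structures were counted from a wider list of 71, of which 63 were tested. In T24 12 rose and 16 fell (15.2% and 13.4% of all genes), in 5637 12 rose and 18 fell (15.9% and 13.6%), in TCC-SUP 6 rose and 17 fell (9.57% and 11.1%), and 2 rose and 1 fell in CLS-439 (0.298% and 0.322%). These shares are the background of each smaller list below, none of which was tested as a set. Their median log2 fold change was 0.05 in 5637, -0.19 in T24, 0.02 in CLS-439 and -0.21 in TCC-SUP. Of 8 hemidesmosome partners and laminin receptors, 5 fell in T24, 4 in 5637, 0 in CLS-439 and 4 in TCC-SUP, and none was called higher in any line. ITGA3, an integrin subunit that binds the same laminin, fell by 2.04 on the log2 scale in 5637 (421 ± 202 CPM after MMC, 1731 ± 38.3 CPM untreated, adjusted p = 5.12e-06), and by 1.06 in T24. ITGA2, a collagen receptor subunit, fell by 1.24 in TCC-SUP and by 1.11 in T24. ITGB1, their shared partner, fell by 0.92 in T24 and by 0.87 in 5637.

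Of 11 other adherens junction genes, 0 rose and 7 fell in 5637, 1 rose and 4 fell in T24, 1 rose and 6 fell in TCC-SUP, and 1 rose and 0 fell in CLS-439. The falls included NECTIN1 (log2 fold change -1.08), an immunoglobulin-type adhesion protein, and PTPRF (-1.07), a receptor phosphatase, in 5637. NECTIN4, a nectin, rose in CLS-439, with 4.0, 2.87 and 4.10 CPM after MMC against 0.345, 0.262 and 0.412 CPM untreated (3.4, SE 0.45, adjusted p = 0.000201). It also rose in TCC-SUP (1.74) and T24 (2.56), at no more than 2.62 CPM. Other tight junction genes went both ways, with 6 higher and 3 lower of 18 tested in 5637, 5 higher and 3 lower in T24, 3 higher and 4 lower in TCC-SUP, and none called in CLS-439. MAGI1, a scaffold protein, fell by 2.98 on the log2 scale in 5637 and by 2.31 in TCC-SUP. PARD3, a polarity protein, fell by 1.57 in 5637 and by 2.07 in TCC-SUP. CLDN6, a claudin, rose by 2.82 in 5637 and by 3.00 in TCC-SUP, at mean levels of 0.933 and 1.29 CPM after MMC.

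Of 7 other desmosome genes, 4 were tested. PKP4, a catenin related to plakophilins, fell in T24 (-0.61), 5637 (-0.95) and TCC-SUP (-0.77), PERP rose in TCC-SUP (0.51), and no gene was called in CLS-439. Of 15 other regulators and surface genes tested, 5 rose and 2 fell in 5637, 3 rose and 2 fell in T24, 1 rose and 1 fell in TCC-SUP, and 0 in either direction in CLS-439. TP63, the basal epithelial transcription factor, fell by 1.54 in 5637 (42.0 CPM after MMC, 122 CPM untreated), and by 2.04 in TCC-SUP. KLF4, a differentiation factor, rose in T24 (2.32) and 5637 (1.00), and KLF5 in T24 (1.30) and TCC-SUP (0.61).

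Repressors of the programme also moved after MMC. Of 7 repressors, 3 rose and 1 fell in T24, 1 rose and 1 fell in 5637, 0 rose and 1 fell in TCC-SUP, and 1 rose and 1 fell in CLS-439. SNAI1 rose in 5637, with 4.31, 19.2 and 17.2 CPM after MMC against 0.864, 0.483 and 0.644 CPM untreated (log2 fold change 4.35, SE 0.46, adjusted p = 2.61e-07). It rose in T24 as well, with 6.33, 12 and 7.58 CPM after MMC against 1.63, 1.01 and 1.02 CPM untreated (2.82, SE 0.42, adjusted p = 2.26e-05). SNAI2 fell in 5637 (-0.78) and CLS-439 (-0.90) and rose in T24 (0.72). ZEB1 fell in T24, where the groups overlap (-0.59, adjusted p = 0.0410), and TCC-SUP (-0.65, adjusted p = 0.0381). SNAI3 rose in CLS-439 (3.24), on 103 reads after MMC and 11 untreated.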

How the data were processed

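The authors deposited raw read counts per gene for all 24 libraries, with no normalization. Per the submitters' processing notes the tools were STAR 2.5.3a and featureCounts 1.6.2 and the build was GRCh38. Which annotation release was used, whether strand was used in counting and how reads with several matches were handled is not given in the sources used here. Per the labels' protocols, a stranded mRNA kit was used.

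Symbols, coordinates and exon lengths came from GENCODE v29, which matched 58216 of 58381 gene identifiers. Exons of 14 of the 37 genes overlap those of another gene. CPM are counts scaled to the library total after TMM. Genes with too few counts were dropped (filterByExpr by group), and edgeR 4.0.16 (R 4.3.3) fitted 1 mean per group over 24 libraries by quasi-likelihood, with Benjamini-Hochberg adjustment over 20820 genes at 0.05. SE is the log2 fold change divided by the root of F. The design was kept as written, with 6 contrasts of responses between lines added later, with the data in view. The procedure was tested on simulated data. Alternatives were DESeq2 1.42.0, size factors by relative log expression, no filter, replicate blocks, left-out libraries and restricted sets of libraries. Folds with a group at 0 use a floor of 3 reads over the group and take the reads of the other group as exact. Ratios of 1 to 3 reads carry exact 95% intervals. Neither covers more than counting error.

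The members and lists were chosen with earlier results of these data known. Any member may be named. Per-library values are given for 8 marker genes and, in each line, for up to 6 called genes of largest change at 5 CPM or more, and the other per-library values printed were chosen after they were seen. Of other lists, up to 3 called genes of largest change per line are named, and genes named beyond that were chosen after their values were seen.

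Pairing by replicate number was judged from the correlation of same-numbered deviations from the group means over 15348 genes. It was 0.24, 0.11 and 0.32 in 5637 and 0.37, 0.25 and 0.12 in CLS-439, which were taken as paired. This choice by line came from the data, and the labels number the replicates alike in every line. No 2 replicates agreed within sampling noise.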

Additional observations from a re-analysis of the deposited data

Results flagged for a closer look

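Responses to MMC that differed among the 4 lines are listed here, by a joint test of the difference itself (edgeR, adjusted over all genes). ITGA6 had an adjusted p of 2.83e-05, with log2 fold changes of -2.21 (T24), -1.82 (5637), -0.99 (TCC-SUP) and 0.02 (CLS-439). ESRP2 had an adjusted p of 0.000925, with -0.53, -0.75, 1.6 and 0.69 in the same order of lines. LAMB3 had 0.00177 (1.07, 0.88, -0.28 and 0.28), CLDN1 0.00306 (1.15, 0.49, 0.72 and -0.13) and EPCAM 0.00599 (-1.12, 0.24, -0.36 and -0.09). ST14 had 0.0204 (0.79, 0.74, -0.99 and 1.36), OCLN 0.0209 (-0.47, 0.95, -0.23 and -0.57) and F11R 0.0428 (-0.62, -0.06, -0.85 and 0.09). ST14 had at most 20 reads per group in T24 and at most 3 in CLS-439.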

How the results depend on the processing

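Of 25 calls of the 37 genes in the 4 responses, 7 were kept under every alternative tried (CLDN1, EPCAM, ITGA6 and LAMB3 in T24, DSC2, ITGA6 and LAMB3 in 5637), 18 were lost under at least 1, and none was reversed. In T24, 4 genes rose with DESeq2, without the filter and without MMC replicate 1 of every line, against 2, and 6 fell without the filter, 6 with the replicate block and 10 without MMC replicate 1, against 3. Over all genes in T24, 3452 of 20820, 2934 of 39260 and 4089 of 21311 rose in these settings, against 3162 of 20820. Those that fell were 2853 of 39260, 3190 of 20820 and 4034 of 21311, against 2785 of 20820. In 5637, 6 fell with the replicate block and 10 without MMC replicate 1, against 3. In TCC-SUP, 10 fell without MMC replicate 1, against 6. In CLS-439, 1 rose with DESeq2, without the filter, with the replicate block and without MMC replicate 1, against 0, and 2 fell with only that line's libraries. Over all genes, 119 of 20820 rose there with DESeq2 and 116 of 39260 without the filter, and 381 of 16190 fell with only that line's libraries. Of the wider list, 6 rose and 9 fell in T24 with only that line's libraries. In CLS-439, 1 of that list rose with DESeq2, 4 with only that line's libraries, and 2 fell without MMC replicate 1. Responses differed among lines for 15 genes without the filter, 5 without CLS-439 and 16 without MMC replicate 1, against 8. Over all genes these settings called 4106 of 39260, 937 of 17962 and 6819 of 21311, against 3339 of 20820. Without CLS-439, 1 gene was lower in untreated 5637 than TCC-SUP, against 2. ITGB4 in T24 reversed to -1.36 without MMC replicate 1 of T24, -0.85 without replicate 1 of both groups and -1.37 without MMC replicate 1 of every line, and MYO5B in T24 reversed to -0.65 under the last. The cause was not tested.

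Leaving out libraries moved the members rising and falling to 2 to 3 and 2 to 8 in T24, 2 to 8 and 1 to 11 in 5637, 0 to 3 and 1 to 8 in TCC-SUP, and 0 to 1 and 0 to 1 in CLS-439. For the wider list the ranges were 4 to 12 and 2 to 19 in T24, 6 to 15 and 5 to 24 in 5637, 0 to 8 and 1 to 20 in TCC-SUP, and 0 to 2 and 0 to 1 in CLS-439. For differences among lines the range was 0 to 14. The calls over all genes moved as well, and for differences among lines they were 94 of 20984 without replicate 4 and 5085 of 21063 without replicate 1. Untreated, the higher and lower counts were 30 to 31 and 0 to 0 for 5637 over T24, 29 to 31 and 1 to 3 over TCC-SUP, 29 to 29 and 5 to 7 over CLS-439, 14 to 19 and 8 to 10 for TCC-SUP over T24, 16 to 18 and 9 to 12 for CLS-439 over T24, and 14 to 17 and 15 to 15 over TCC-SUP.

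In T24 and TCC-SUP the libraries were not taken as paired (correlations of 0.34, -0.13 and 0.37, and of 0.11, -0.01 and -0.13). Yet the T24 values of replicates 1 and 4 lie above all those of 5637 (0.24, 0.11 and 0.32). With the replicate block DSG2 (log2 fold change -0.45, adjusted p = 0.0309), PKP3 (-0.78, 0.00828) and SPINT2 (-0.36, 0.0442) were called lower in T24. SPINT1 was called higher there (0.48, 0.00754). With the replicate block CDH1 in TCC-SUP had an adjusted p of 0.0255 and ST14 one of 0.0772. In 5637 and CLS-439 the block changed no call of the 37 genes beyond those given beside the results. Genes with few reads, such as CLDN3 and TJP3, and GRHL2 outside 5637, are limited by depth.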
